A study of Homo sapiens with 8 samples.

Results

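The zinc finger cluster in 19p12, a variable-staining band on the short arm of chromosome 19 that ends at the centromere, was examined for H3K9me3, the histone mark of constitutive heterochromatin. It was taken as chr19:20000001-24400000 on hg19, the whole of the band, and divided into 440 tiles of 10 kb, out of 309579 such tiles in the genome. The measurements were ChIP-seq enriched intervals in PC9, an established human lung adenocarcinoma line that depends on mutant EGFR. The library of DTP + TSA came from drug-tolerant persisters, the cells alive after 8 days in 1 μM of the EGFR inhibitor erlotinib, that were then given 50 nM trichostatin A (TSA), an inhibitor of histone deacetylases, for 5 hours. The DTP library came from persisters with erlotinib alone, and the parental library from untreated PC9 cells. The 3 H3K9me3 libraries used here are among 8 samples in the series, with 1 library per state. Differences between states therefore come without replication, and no test was made. Bracketed ranges are exact (Clopper-Pearson) 95% binomial intervals over tiles, summits or 200-bp steps. They cover counting error only. Neighbouring tiles are not independent, and neither are neighbouring 200-bp steps, over which the ranges for the covered share of the cluster were taken. Such ranges are too narrow. The depth of the libraries is unknown, since the interval lists hold no read totals.

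Genes of this cluster encode KRAB zinc finger proteins. In these proteins an array of C2H2 fingers reads DNA, mostly in transposable elements, and the KRAB domain recruits TRIM28 (KAP1) and the H3K9 methyltransferase SETDB1, which lay down H3K9me3 that HP1 proteins bind. Human ZNF91, for example, represses SVA elements. The zinc finger genes themselves are a well known site of broad H3K9me3 in human cells. In a RefSeq annotation of GRCh38, 32 of the 34 protein-coding genes between ZNF682 and ZNF254 had ZNF symbols, in the order ZNF682, ZNF90, ZNF486, ZNF737, ZNF626, ZNF66, ZNF85, ZNF430, ZNF714, ZNF431, ZNF708, ZNF738, ZNF493, ZNF429, ZNF100, ZNF43, ZNF208, ZNF257, ZNF676, ZNF729, ZNF98, ZNF492, ZNF99, ZNF723, ZNF728, ZNF730, ZNF724, ZNF91, ZNF675, ZNF681, ZNF726 and ZNF254. They lay among 97 pseudogenes. The intervals are on hg19 and the annotation is on GRCh38, so coverage is given by hg19 position and not by gene.

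The genes of the cluster arose by tandem duplication and still share much of their promoter sequence. RefSeq promoters (GRCh38.p14, 250 bases before to 50 after the start) were found for 26 of the 32 listed genes, 27 promoters in all, since ZNF682 had 2. Over the 325 pairs with 1 promoter per gene, taking the downstream one of ZNF682, the median identity was 76.6%, from 49.2% to 91.0%. Promoters of 4 genes along the cluster are shown, at chr19:20923001-20923300 on the + strand for ZNF85, and on the - strand at chr19:21836133-21836432 for ZNF43, chr19:22010894-22011193 for ZNF208 and chr19:23395422-23395721 for ZNF91, all on GRCh38.p14. Capitals mark the word of 10 letters and the word of 14 letters that were most frequent in the cluster's promoters.
ZNF85: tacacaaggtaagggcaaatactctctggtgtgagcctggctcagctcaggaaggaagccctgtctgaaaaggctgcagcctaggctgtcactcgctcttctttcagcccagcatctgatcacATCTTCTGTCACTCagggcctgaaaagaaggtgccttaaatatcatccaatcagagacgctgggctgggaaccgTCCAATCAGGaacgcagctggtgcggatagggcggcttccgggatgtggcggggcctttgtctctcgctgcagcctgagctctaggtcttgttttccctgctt
ZNF43: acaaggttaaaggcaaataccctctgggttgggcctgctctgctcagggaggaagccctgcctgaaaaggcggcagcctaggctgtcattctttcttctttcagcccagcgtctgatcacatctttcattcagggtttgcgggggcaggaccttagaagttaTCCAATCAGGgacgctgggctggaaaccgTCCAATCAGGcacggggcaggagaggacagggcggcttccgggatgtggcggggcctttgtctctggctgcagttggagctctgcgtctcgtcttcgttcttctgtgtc
ZNF208: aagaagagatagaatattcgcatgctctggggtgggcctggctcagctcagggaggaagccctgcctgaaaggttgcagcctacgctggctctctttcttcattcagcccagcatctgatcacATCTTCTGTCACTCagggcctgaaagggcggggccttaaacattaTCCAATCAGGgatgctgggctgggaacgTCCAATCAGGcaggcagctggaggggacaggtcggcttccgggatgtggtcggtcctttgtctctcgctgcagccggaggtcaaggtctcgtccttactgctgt
ZNF91: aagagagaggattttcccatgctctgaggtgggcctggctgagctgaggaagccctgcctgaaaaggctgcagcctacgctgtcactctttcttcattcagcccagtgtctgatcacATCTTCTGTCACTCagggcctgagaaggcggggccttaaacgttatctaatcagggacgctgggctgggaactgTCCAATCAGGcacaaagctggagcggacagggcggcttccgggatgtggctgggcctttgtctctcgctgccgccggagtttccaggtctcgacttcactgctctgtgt
The 10-letter word TCCAATCAGG, which holds the core of a CCAAT box, was in 23 of the 27 promoters (85.2%) and in 0.347% of all 35116 promoters, searched on both strands. It was also in 35 of 492 promoters of other genes with ZNF symbols. The 14-letter word ATCTTCTGTCACTC was in 15 of the 27 (55.6%) and in 1 promoter outside the list. Both words were picked for being frequent in these 27 promoters, so a higher share there follows from the choice. The words do not overlap, and 13 of the 27 promoters held both. Identity between the 4 printed promoters ranged from 78.4% to 86.0%. The sources used here do not say how reads that match several such copies were placed.

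The cluster was close to a solid block of H3K9me3 in parental cells, and in DTP it was broken into many shorter intervals. Coverage was 54.9% (54.3 to 55.6) in DTP + TSA, 55.6% (54.9 to 56.3) in DTP and 90.2% (89.8 to 90.6) in parental cells. DTP thus had 34.6 points less than parental cells, or 0.62 times the covered length, against 1.34 times in the rest of the genome and 0.71 times in the zinc finger band 7q11.21. Of the parental length, DTP kept 60.6% in the cluster and 49.9% in the rest of the genome. Elsewhere DTP also had intervals where parental cells had none, and these made up 62.7% of its covered length outside the cluster against 1.68% inside. Parental intervals covered 90.2% of the cluster and 3.93% of the rest of the genome, so the cluster had little room for new ones. That limits both this share and the ratio of covered length in the cluster. The difference was -56.3 points when the lists were cut to equal numbers of intervals, the strongest by mean signal. That number, 23842, was the length of the parental list, so only the persister lists were cut. Such a cut can only lower coverage in DTP, and it is no check of the direction. The cluster held 335 intervals in DTP + TSA, 345 in DTP and 156 in parental cells. Their median length was 5.4 kb in DTP + TSA, 5.4 kb in DTP and 14.4 kb in parental cells. Intervals over 50 kb numbered 0 in DTP + TSA, 1 in DTP and 21 in parental cells, where they spanned 1979.8 kb. Elsewhere in the genome such long intervals numbered 40 in DTP + TSA, 42 in DTP and 75 in parental cells. The share of a library's total covered length that lay in the cluster was 1.35% in DTP + TSA, 1.48% in DTP and 3.17% in parental cells. In such bulk cell samples, loss of the mark from some of the cells and a lower level in every cell cannot be told apart.

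By tile, full coverage gave way to partial coverage more often than to none. Fully covered tiles numbered 52 in DTP + TSA, 52 in DTP and 268 in parental cells, and the median tile was 60% covered in DTP + TSA, 62% in DTP and 100% in parental cells. Tiles without any coverage numbered 62 in DTP + TSA, 62 in DTP and 12 in parental cells. Between DTP and parental cells, 363 tiles were lower in DTP, 13 were higher and 64 were equal. Of the 268 tiles that were full in parental cells, 48 were full in DTP and 18 had no coverage there.

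**Figure D1:**
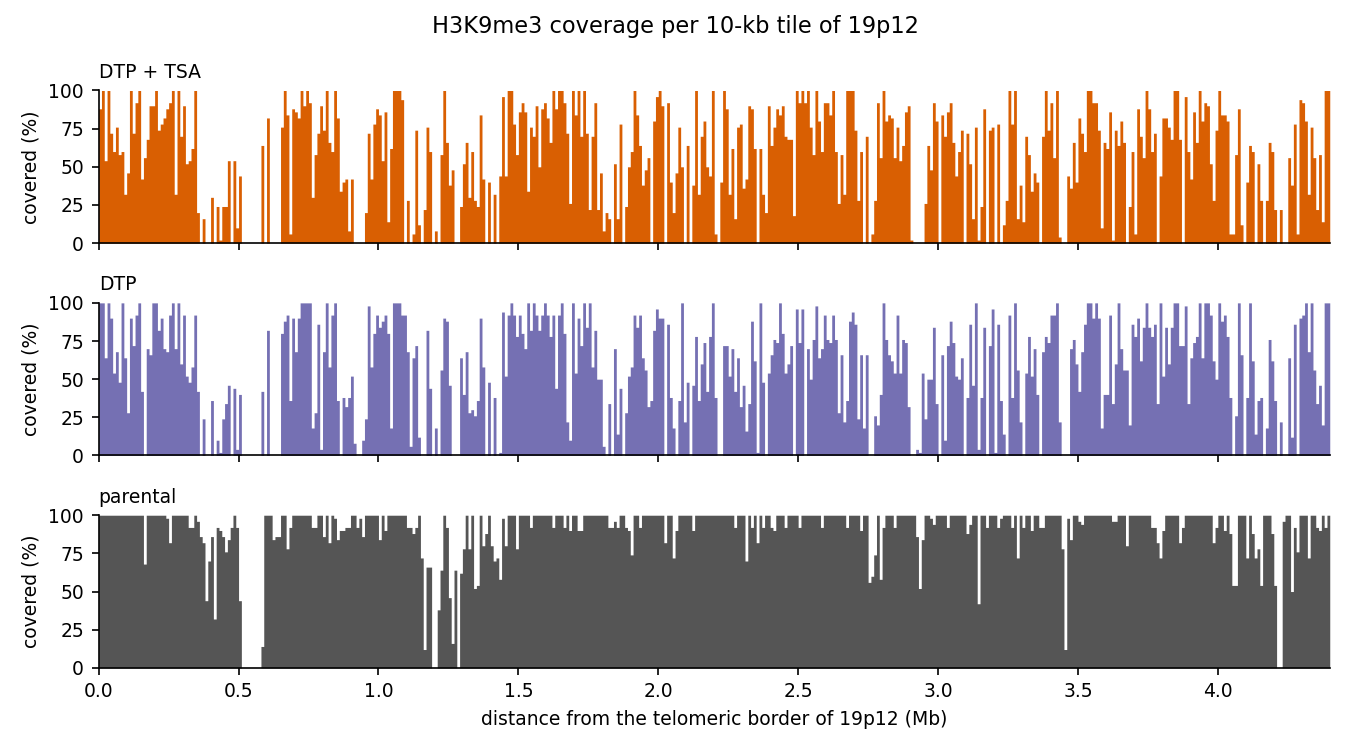
Share of each of the 440 tiles of 10 kb covered by H3K9me3 intervals (vertical axis, percent) against distance from the telomeric border of 19p12 (horizontal axis, Mb), with 1 panel per library. The parental panel is full along most of the band, with 268 full tiles, while the DTP + TSA and DTP panels have 52 each.

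A tile was called lost when its coverage was lower by at least 50 points, which needs at least 50% coverage to begin with. In DTP against parental cells, 137 of 418 tiles able to do so were lost, or 32.8% (28.3 to 37.5). Over the whole genome the same call was made for 36.0% of such tiles, so the share in the cluster was near the background and is no feature of the cluster. With lists cut to equal numbers by mean signal, 258 of the 418 tiles were lost, or 61.7% (56.9 to 66.4), and the background was 57.1%. The parental list stayed whole in this cut, so the cut itself could only add lost tiles. What was unusual in number was the starting point, since the cluster held 418 of the genome's 9152 tiles that were at least 50% covered in parental cells. None of 23 tiles gained 50 points, against a background of 1.30%, and a count of 0 in 23 allows a share of up to 14.8%. The tile nearest to the threshold on the lost side changed by -50 points and the nearest on the other side by -48 points.

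The lost tiles were scattered in short runs along the whole cluster. They formed 74 runs, of which 39 were single tiles, 19 were pairs and 16 had at least 3 tiles, the longest 6. That longest run, chr19:21780001-21840000, was covered to 18.7% in DTP + TSA, 23.3% in DTP and 97.3% in parental cells. A run at chr19:20910001-20960000 stood at 4% in DTP + TSA, 8.40% in DTP and 95.2% in parental cells. Another, chr19:22890001-22940000, stood at 18.4% in DTP + TSA, 7.60% in DTP and 87.6% in parental cells. The run chr19:20610001-20650000 had no coverage in DTP + TSA or DTP and 89.0% in parental cells. The run chr19:20860001-20900000 had 31.0% in DTP + TSA, 27% in DTP and 91.0% in parental cells. The last 2 are the first along the cluster of 5 runs of 4 tiles. All of these runs were chosen for low coverage in DTP, and in those named DTP + TSA was also below parental cells.

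Every 100-kb window of the cluster was covered less in DTP than in parental cells, and the size of the difference varied widely. The 44 windows differed by -7.6 to -70.6 points, with a median of -33.6. Coverage per window ranged from 10.8% to 85.0% in DTP + TSA, from 8.20% to 89.0% in DTP and from 15.8% to 100% in parental cells. The windows with the largest and the smallest difference among those nearly full in parental cells were picked after their values were seen. The window with the largest difference, chr19:21800001-21900000, was at 26.4% in DTP + TSA, 24.8% in DTP and 95.4% in parental cells. The one with the smallest, chr19:21500001-21600000, was at 76.4% in DTP + TSA, 89.0% in DTP and 99.2% in parental cells. These windows are 200 kb apart, which shows how uneven the loss was over short distances.

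**Figure D2:**
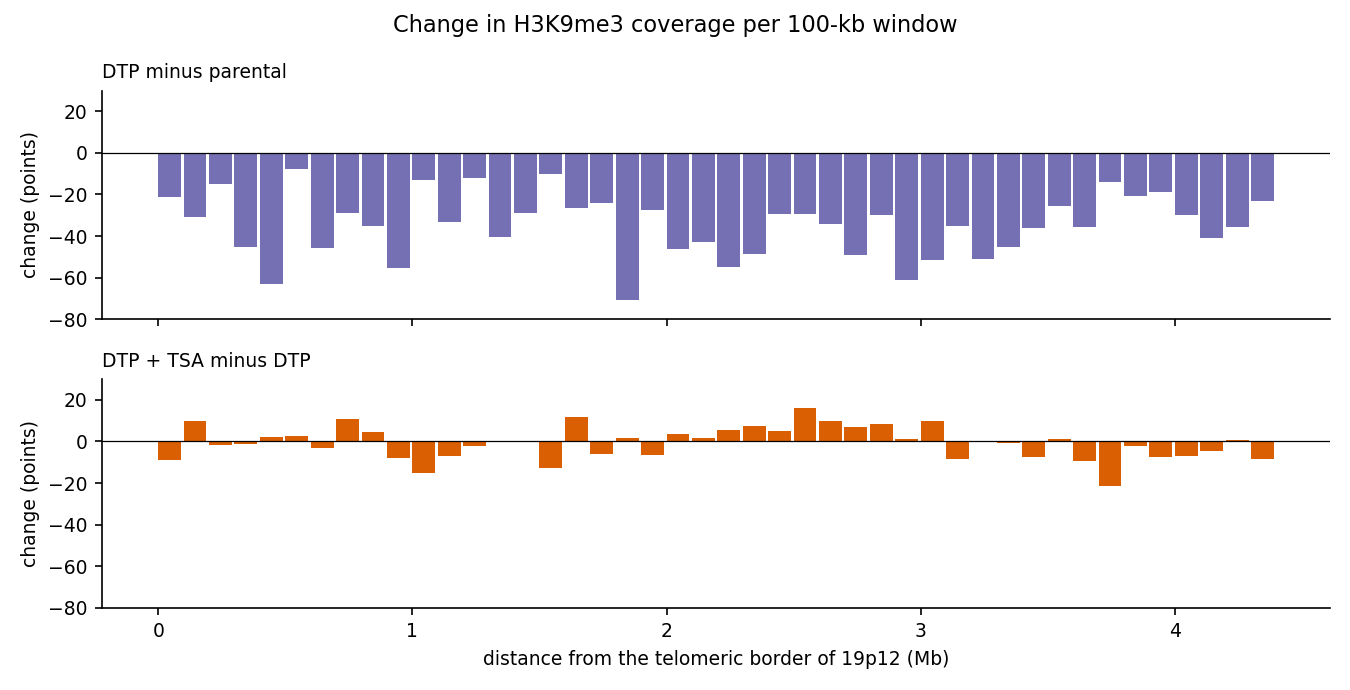
Difference in covered share (vertical axis, percentage points) for each of 44 windows of 100 kb against distance from the telomeric border of 19p12 (horizontal axis, Mb), for DTP minus parental in the upper panel and DTP + TSA minus DTP in the lower one. All 44 bars of the upper panel are below 0, and the lower panel has 23 windows above 0 and 21 below.

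At the borders of the band, coverage and its difference between DTP and parental cells were set against the interior. Over the outer 500 kb of both sides, coverage was 54.6% in DTP + TSA, 57.3% in DTP and 89.7% in parental cells. In the interior it was 55.0% in DTP + TSA, 55.1% in DTP and 90.4% in parental cells. The difference between DTP and parental cells was therefore -32.4 points at the edges and -35.3 points in the interior. On the telomeric side the outer 500 kb differed by -35.0 points and on the centromeric side by -29.7 points. The first 250 kb on the telomeric side kept more, with 75.1% in DTP + TSA, 74.3% in DTP and 98.6% in parental cells. The outermost 250 kb on the centromeric side, at 45.1% in DTP + TSA, 48.8% in DTP and 82.2% in parental cells, did not share this. By blocks of 400 kb, the share of parental length still covered in DTP was lowest in chr19:20400001-20800000 (47.7%) and chr19:22000001-22400000 (49.4%) and highest in chr19:23600001-24000000 (75.6%).

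Marked sequence did not stop at the border of the band on either side. The first parental interval that reached into the cluster, chr19:19894801-20166000, was 271.2 kb long and began 105.2 kb before the border. Over those 105.2 kb, coverage was 89.5% in DTP + TSA, 85.2% in DTP and 100% in parental cells. On the centromeric side, the 200 kb beyond the last parental interval were at 81.1% in DTP + TSA, 85.5% in DTP and 87.7% in parental cells. With the cluster's ends moved to the outer ends of the first and last parental intervals, a choice made after seeing the data, the difference between DTP and parental cells was -26.3 points in the outer 500 kb of both sides and -36.1 points in the interior. The last of these intervals is not the end of the marked sequence, as the coverage beyond it shows. The loss at the edges was smaller than in the interior by 2.94 points with the band's borders and by 9.83 points with the moved ends. Over both sides together, this contrast was 6.49 with an outer 250 kb, 5.83 with an outer 1 Mb and 5.15 to 8.86 in stricter interval sets. With intervals joined it was 1.53 to 1.64, so the size of this pooled contrast depended on the setting and its sign did not. The sides taken singly differed. Of the parental length in the outer 250 kb, DTP kept 75.3% on the telomeric side and 55.5% on the centromeric side, against 59.9% in the interior between them.

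Gaps between intervals were both more frequent and wider in the persister libraries. Uncovered stretches numbered 334 in DTP + TSA, 344 in DTP and 155 in parental cells, and added up to 1982.8 kb in DTP + TSA, 1953.4 kb in DTP and 429.6 kb in parental cells. Their median width was 2800 bp in DTP + TSA, 2400 bp in DTP and 1000 bp in parental cells. No gap was narrower than 800 bp, and gaps of exactly that width made up 11.4% in DTP + TSA, 19.2% in DTP and 41.3% in parental cells. Gaps of at least 10 kb numbered 64 in DTP + TSA, 65 in DTP and 7 in parental cells. They held 59.4% of the uncovered length in DTP + TSA, 62.7% in DTP and 41.6% in parental cells. With lists cut to equal numbers by mean signal there were 160 gaps in DTP + TSA, 171 in DTP and 155 in parental cells, while coverage was 31.7% in DTP + TSA, 33.9% in DTP and 90.2% in parental cells. Small breaks were thus the commonest kind in each library by count, while most of the uncovered length in the persister libraries lay in wide gaps.

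**Figure D3:**
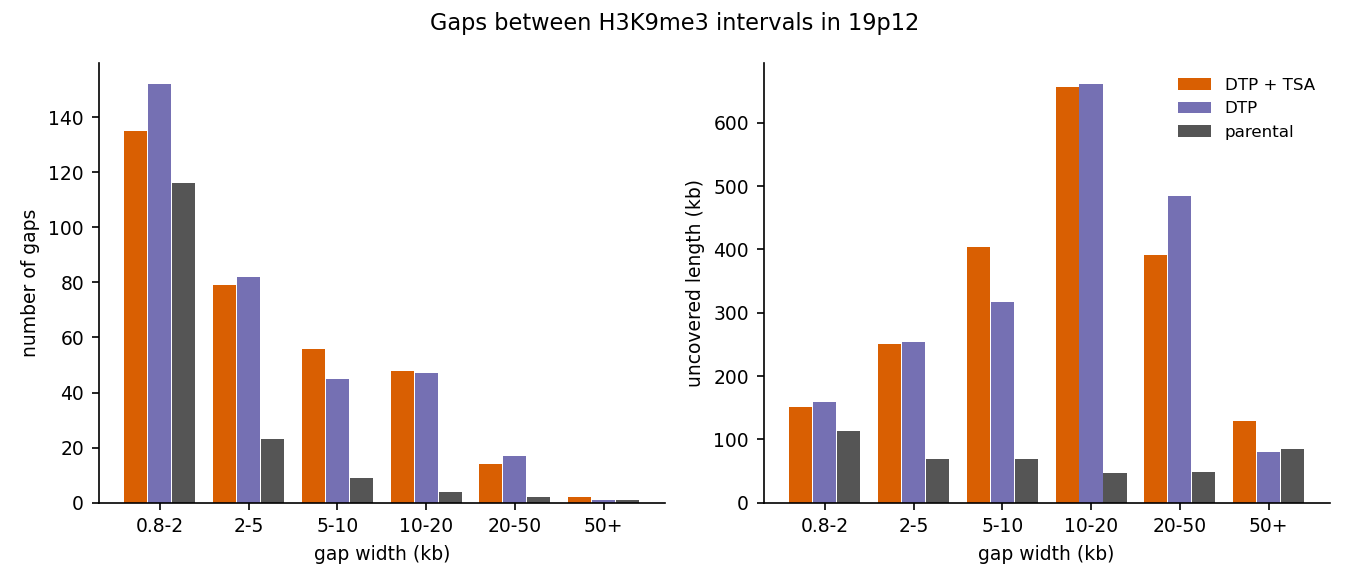
Number of gaps (left) and their summed length in kb (right) by gap width in kb, for DTP + TSA, DTP and parental cells. Gaps of 10 to 20 kb numbered 48 in DTP + TSA, 47 in DTP and 4 in parental cells and hold the most uncovered length in both persister libraries.

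The widest gap was in the same place in the 3 libraries and is not a change. It lay at chr19:20504401-20582800 (78.4 kb) in DTP + TSA, chr19:20504001-20584000 (80 kb) in DTP and chr19:20504401-20588600 (84.2 kb) in parental cells. It contained 7 of the 10 tiles that no library covered. Whether reads could be placed there was not tested, as no hg19 sequence was used here. The next widest gaps in DTP + TSA were chr19:22900201-22951600 (51.4 kb), which was 12.1% covered in DTP and 84.8% in parental cells, and chr19:20905201-20951200 (46.0 kb), which was 6.96% covered in DTP and 94.8% in parental cells. In DTP they were chr19:20608401-20652000 (43.6 kb), 0% covered in DTP + TSA and 89.9% in parental cells, and chr19:23432201-23471000 (38.8 kb), 11.3% covered in DTP + TSA and 69.6% in parental cells. In parental cells they were chr19:24206201-24230400 (24.2 kb) and chr19:21186601-21210600 (24.0 kb), covered to 9.09% and 3.33% in DTP + TSA and to 9.09% and 7.50% in DTP.

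By number, most gaps of DTP touched no parental gap, and the gaps that touched one held more of the uncovered length. Of the 344 gaps in DTP, 237 (68.9%) touched no parental gap, and these held 812.2 kb, or 41.6% of the length uncovered in DTP. Of all the length uncovered in DTP, 19.9% was uncovered in parental cells as well. Of the length of the parental gaps, 90.5% was uncovered in DTP as well. Between the persister libraries most of the uncovered length lay in the same places, while fewer gaps matched singly. Of the uncovered length, 79.5% of that of DTP + TSA and 80.7% of that of DTP was uncovered in the other library. Coverage of the cluster was 54.9% in DTP + TSA and 55.6% in DTP, so part of this overlap would arise without any link in position. Gap by gap, 161 (48.2% of those in DTP + TSA and 46.8% of those in DTP) overlapped a gap of the other list by at least 50% of each. By position, 100 gaps (29.9% of those in DTP + TSA and 29.1% of those in DTP) had a counterpart in the other list with both ends within 1 kb.

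Inside the parental intervals, the length absent from DTP was divided by whether it touched an end of the interval. Of 1564.8 kb covered in parental cells and not in DTP, 51.9% lay in 237 internal pieces that touched neither end of a parental interval, 35.8% in 150 pieces at an end, and 12.3% in 36 intervals that were absent altogether. In the rest of the genome internal pieces held 4.83% of the lost length and whole intervals 57.7%. Among parental intervals over 16 kb outside the cluster, internal pieces held 27.5% and whole intervals 18.0%, so the contrast with the cluster was smaller there. The cluster values are over intervals of any length, and whether interval length bears on the contrast was not tested. The internal share in the cluster depended on the interval set, at 31.2% with lists cut to equal numbers by mean signal and 87.8% with intervals joined within 5 kb. Internal pieces can lie close to an end, and 60.4% of the lost length was within 10 kb of one. The median internal piece in the cluster was 1400 bp long and the longest 30.8 kb.

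Long intervals were broken up and short ones were often absent. Of the 156 parental intervals in the cluster, 36 had no overlap with DTP, and each of these was shorter than 16 kb. In the rest of the genome 8516 parental intervals had none, from a parental list of 23842 in all. Absence of whole intervals was thus no particular trait of the cluster. Of the 21 with at least 50 kb, all were split into 2 or more DTP intervals, and 68.8% of their length inside the cluster was still covered in DTP. Of the 33 under 5 kb, 19 were absent from DTP and 30.4% of the length was covered. The longest parental interval, that of 271.2 kb described above, was 79.1% covered by 21 intervals in DTP + TSA and 77.7% covered by 20 intervals in DTP. The next, chr19:22125201-22278000 (152.8 kb), was 54.6% covered by 13 intervals in DTP + TSA and 55.0% covered by 19 in DTP. The third in length, chr19:23510601-23629600 (119.0 kb), was 68.4% covered by 9 intervals in DTP + TSA and 72.1% covered by 7 in DTP.

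The longest persister intervals lay in places that both persister libraries marked. The longest in each was the last of the cluster, chr19:24378601-24422800 (44.2 kb) in DTP + TSA and chr19:24378001-24428400 (50.4 kb) in DTP. In DTP + TSA, chr19:21049001-21089400 (40.4 kb) followed, which was 97.5% covered in DTP, and then chr19:22669401-22707400 (38 kb), which was 76.8% covered in DTP by 4 intervals. In DTP, chr19:20716801-20760000 (43.2 kb) followed, which was 95.8% covered in DTP + TSA by 3 intervals, and then chr19:21049201-21088600 (39.4 kb), which was covered in full in DTP + TSA.

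The share kept in DTP was larger away from interval ends, and in the cluster it stopped short of the level seen elsewhere. Within 2 kb of a parental interval's end, 36.7% of the length was covered in DTP + TSA and 37.7% in DTP. From 20 to 50 kb inside it was 70.8% in DTP + TSA and 71.4% in DTP. In intervals over 16 kb outside the cluster, the same classes stood at 43.6% and 88.7% in DTP + TSA and at 44.7% and 88.2% in DTP. The cluster values take in parental intervals of any length, so near the ends the 2 sets are unlike. Over intervals of any length elsewhere, the class within 2 kb stood at 43.1% in DTP + TSA and 44.4% in DTP. From 20 kb inward both sets rest on long intervals alone. At 50 kb or more from an end the cluster held 200 kb, covered to 61.4% in DTP + TSA and 67.6% in DTP, against 93.2% in DTP + TSA and 93.7% in DTP elsewhere.

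**Figure D4:**
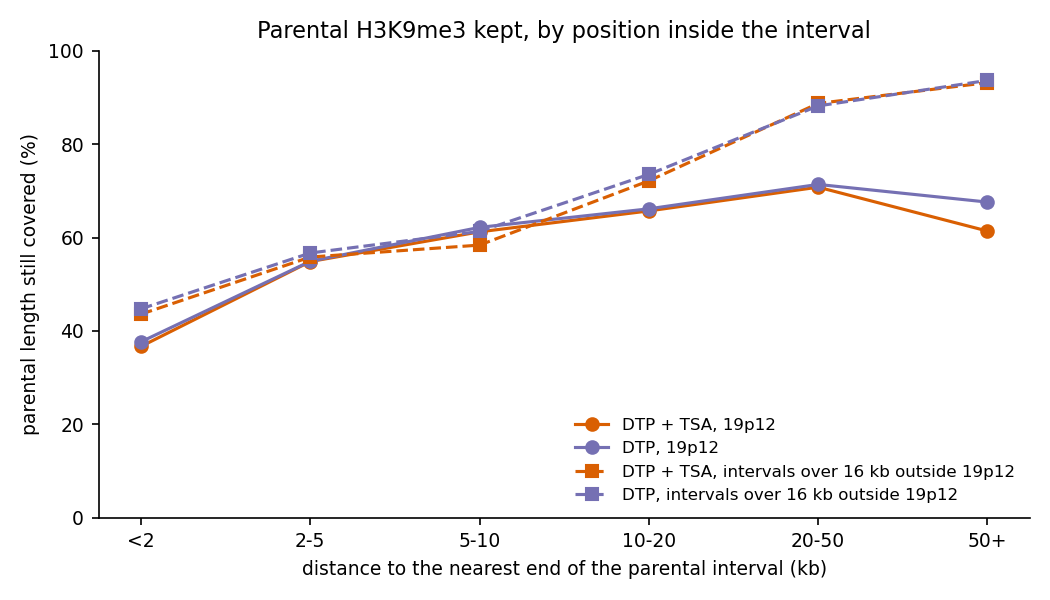
Share of parental H3K9me3 length that was still covered (vertical axis, percent) by distance to the nearest end of the parental interval (horizontal axis, kb), in DTP + TSA and DTP, for parental intervals of any length in 19p12 (circles) and for those over 16 kb elsewhere (squares). From 20 kb inward the 19p12 lines stay between 61.4% and 71.4%, and the others lie between 88.2% and 93.7%.

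The intervals' mean signal is the authors' value per interval and is comparable within a list, not between lists. In each list the median for the cluster was set against the whole list. The median mean signal in the cluster stood at percentile 52.3 in DTP + TSA, 50.1 in DTP and 71.0 in parental cells. Weighted by length, the mean signal of the cluster was below that of the whole list in each library, at 16.7 against 19.7 in DTP + TSA, 14.2 against 18.6 in DTP and 12.3 against 14.4 in parental cells. Among parental intervals of the cluster, the 39 with the weakest mean signal were covered to 18.4% in DTP + TSA and 18.2% in DTP, and 22 of them were absent from DTP. The 39 with the strongest were covered to 66.6% in DTP + TSA and 66.1% in DTP, and 1 was absent from DTP. Stronger parental intervals were also longer. Among those of at least 16 kb, the weaker 36 (1311.6 kb in all) were covered to 60.8% in DTP and the stronger 36 (2065.2 kb) to 66.2%, so signal and length were not separated.

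Compared with the other zinc finger bands, 19p12 stood apart from those on its own chromosome and close to one on chromosome 7. In DTP against parental cells, lost tiles made up 32.8% (28.3 to 37.5) in 19p12 and 10.1% (8.08 to 12.3) over the rest of chromosome 19. Over the rest of the genome they made up 36.1% (35.1 to 37.2). In the zinc finger bands of chromosome 19 the share was 6.58% (3.20 to 11.8) in 19p13.2, 11.8% (7.17 to 18.1) in 19q13.12 and 6.30% (2.76 to 12) in 19q13.43. It was 20.4% (10.2 to 34.3) in 19q13.31, 8.06% (3.94 to 14.3) in 19q13.41 and 11.1% (4.19 to 22.6) in 19q13.42. In 7q11.21, beside the centromere of chromosome 7, it was 34.9% (28.2 to 42.0). The counting intervals of 19p12 and of each chromosome 19 band except 19q13.31 did not overlap, while that of 7q11.21 lay around the value of 19p12. Neighbouring tiles are not independent, so the counting intervals are too narrow and their separation is no test. With 1 library per state these differences have no replicate check. Restricting the comparison to tiles that were full in parental cells gave a mean DTP coverage of 66.9% over 268 tiles in 19p12, 89.3% over 470 tiles in the rest of chromosome 19 and 68.3% over 1661 tiles in the rest of the genome.

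**Figure D5:**
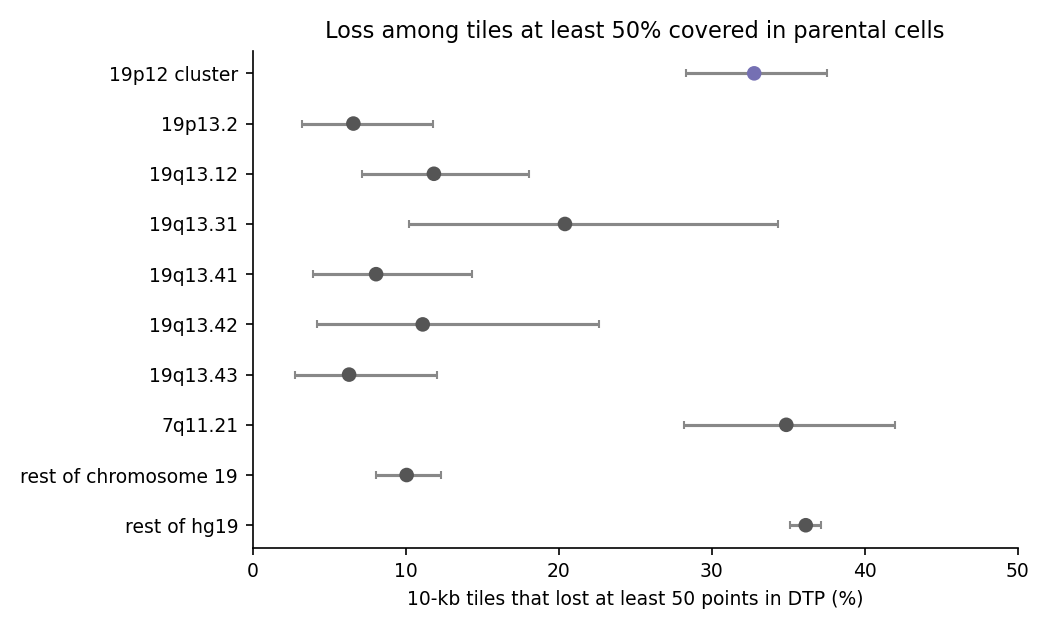
Share of 10-kb tiles at least 50% covered in parental cells that lost at least 50 points in DTP (horizontal axis, percent), for 19p12 (coloured), other zinc finger bands, the rest of chromosome 19 and the rest of hg19. Bars are exact 95% binomial intervals over tiles, and 19p12 (32.8%) and 7q11.21 (34.9%) lie near the rest of hg19 (36.1%).

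With TSA the covered total of the cluster was close to that of DTP, and part of the coverage lay elsewhere within it. Covered length was 2.42 Mb in DTP + TSA and 2.45 Mb in DTP, and 2.04 Mb was shared, which is 84.4% of DTP + TSA and 83.4% of DTP. DTP + TSA covered 377.0 kb that DTP did not, and DTP covered 406.4 kb that DTP + TSA did not. The total differed by -0.67 points, and by 0.61 points in the upper part of each list by mean signal, so its sign depended on the interval set. By tile, 166 were higher and 175 lower in DTP + TSA, with 99 equal and a median change of 0. In DTP + TSA against DTP, 12 of 265 tiles able to do so were lost, or 4.53% (2.36 to 7.78), where the background was 7.62%. In the other direction 9 of 182 gained at least 50 points, or 4.95% (2.29 to 9.18), where the background was 0.809% over the genome and the share was 3.73% in the rest of chromosome 19. Each of these 21 tiles stood alone, with no neighbour called in the same direction. The background for gains was over 300579 tiles, most of them unlike those of the cluster. No library covered 91.0% of the rest of the genome, against 8.26% of the cluster, so the 0.809% is not a like comparison.

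The 3 tiles named in each direction are the first along the cluster, since all runs had the same length. The tile chr19:20160001-20170000 was at 56% in DTP + TSA, 0% in DTP and 68% in parental cells. The tile chr19:20790001-20800000 was at 90% in DTP + TSA, 4% in DTP and 100% in parental cells, and chr19:21670001-21680000 was at 72% in DTP + TSA, 22% in DTP and 100% in parental cells. Among those lower with TSA, chr19:21090001-21100000 was at 0% in DTP + TSA, 92% in DTP and 100% in parental cells. The tile chr19:21030001-21040000 was at 14% in DTP + TSA, 80% in DTP and 100% in parental cells, and chr19:21120001-21130000 at 6% in DTP + TSA, 64% in DTP and 88% in parental cells.

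Most of what was covered in DTP + TSA and not in DTP lay against intervals that DTP already had. Of the 377.0 kb, 54.4% extended a DTP interval, 15.6% filled a gap from end to end, and 30% formed 37 islands inside a gap. The filled gaps were short, with a median of 1000 bp and a longest of 2.6 kb. What DTP + TSA lacked showed a like division, as 55.4% of the 406.4 kb lay at the ends of DTP intervals, 26.7% in 43 intervals that were absent altogether and 17.9% inside DTP intervals. The intervals found in 1 persister library alone were weak within their own list. The 37 intervals of DTP + TSA that touched no DTP interval, out of 335 in the cluster, had a median mean signal at percentile 17.8 of their list. The 43 of DTP that touched none of DTP + TSA, out of 345, stood at percentile 21.7. In the rest of the genome 17845 intervals of DTP + TSA and 13560 of DTP touched none of the other, from lists of 53000 and 47866 in all. The signal of such intervals elsewhere was not examined.

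Most summits of each persister library lay inside intervals of the other, though most had no summit of the other within 200 bp. Of the 345 DTP summits in the cluster, 296 or 85.8% (81.7 to 89.3) were covered in DTP + TSA, and of the 335 DTP + TSA summits 295 or 88.1% (84.1 to 91.3) were covered in DTP. Elsewhere in the genome these shares were 70% and 64.9%. The base rates were unlike, since DTP + TSA covered 54.9% of the cluster and 5.72% of the rest of the genome. DTP covered 55.6% and 5.25%. The higher shares in the cluster are therefore no measure of closer agreement there. A summit of the other persister library lay within 200 bp of 44.8% of the DTP + TSA summits and 43.5% of the DTP summits. Elsewhere in the genome the shares within 200 bp were 38.1% and 42.3%. Of the 154 parental summits inside the cluster, 106 were covered in DTP + TSA and 105 in DTP.

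Over longer stretches the change with TSA went in opposite directions in different parts of the cluster. In chr19:22000001-23100000, each of 11 windows of 100 kb was higher in DTP + TSA, and coverage was 59.2% in DTP + TSA, 52.4% in DTP and 95.8% in parental cells. In chr19:23600001-24400000, 7 of 8 windows were lower in DTP + TSA, and coverage was 55.1% in DTP + TSA, 62.6% in DTP and 90% in parental cells. Both stretches were picked after the values had been seen, and their difference was not tested. At the edges together, DTP + TSA differed from DTP by -2.70 points, and in the interior by -0.07 points.

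Coverage that was absent from DTP was in part covered again in DTP + TSA, and a larger share of it close to what DTP had kept. Of the parental length not covered in DTP, 22.5% was covered in DTP + TSA, against 14% in the rest of the genome, 34.4% in the rest of chromosome 19 and 22.1% in 7q11.21. In the other zinc finger bands of chromosome 19 it was between 21.3% and 44.2%, so the cluster was at the low end of the parts most like it. With lists cut to equal numbers by mean signal it was 12.6% in the cluster. Of the parental length kept in DTP, 83.9% was still covered in DTP + TSA, against 83.2% elsewhere. Up to 600 bp from a DTP interval, 37.8% of the lost length was covered in DTP + TSA, and beyond 10 kb 4.36% was. A stretch missed in DTP by the calling alone would also look like one covered again, since the DTP list defines what was lost.

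Set directly against parental cells, DTP + TSA had a count of lost tiles close to that of DTP. In DTP + TSA, 135 of 418 tiles were lost, or 32.3% (27.8 to 37.0), where the background was 37.4%, and 1 of 23 gained at least 50 points (background 1.75%). These counts share the parental library with those of DTP against parental cells, so the pair is no independent repeat. Over the whole cluster, 45.9% of the length was covered in the 3 libraries, 27.6% in parental cells alone, 8.79% in parental cells and DTP, 8.00% in parental cells and DTP + TSA, and 8.26% in none. H3K9me3 found in a persister library and not in parental cells amounted to 19.6 kb in DTP alone, 25.2 kb in DTP + TSA alone and 21.4 kb in both.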

How the data were processed

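The deposited lists of 3 H3K9me3 libraries give each enriched interval's position, its summit, the value there, its mean value and its bin count, per the file headers. The submitters' processing notes name BWA, SICER, hg19 and dm3, with no version or role. The summit and mean values are signal deposited by the authors. The sources used here do not give the input, the threshold or any scaling of 1 library to another. A deeper library or a looser threshold can give more and longer intervals, which bears on every coverage value.

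Coverage was computed on the 200-bp grid of the files, with starts and ends turned to 1-based positions. Band borders came from the hg19 table in circlize 0.4.16 under R 4.3.3. Coverage was counted in numpy 2.4.6 and pandas 2.3.3 under Python 3.11.15, intervals were computed with scipy 1.17.1, and plots were drawn with matplotlib 3.10.9. Promoter words were counted on both strands. Coverage of single genes had been planned and was left out, for want of gene positions on hg19. With 1 library per state, no test was made. The code passed 8 of 8 checks on data built with known answers. The named regions are the 3 longest intervals and gaps of each library and the longest runs of tiles called lost or gained. The region, the gene list and these rules were chosen with earlier results of these data known. H3K4me3 and input samples were not analysed here.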

Additional observations from a re-analysis of the deposited data

How the results depend on the processing

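The lower coverage of the cluster in DTP held in direction under each interval set tried, and its size varied. With equal numbers this direction was fixed beforehand, since the parental list stayed whole and only the persister lists were cut. DTP minus parental was -56.3 points with equal numbers of intervals, the strongest by mean signal, -46.7 by summit value, -48.3 in the upper part of each list by mean signal, -33.2 and -29.1 with intervals joined within 2 kb and 5 kb, and -35.7 with intervals of at least 2 kb. DTP + TSA minus parental was then -58.5, -49.5, -47.7, -34.2, -29.9 and -36.2. The difference between DTP + TSA and DTP was -2.18 with equal numbers by mean signal and -2.80 by summit value, and it changed sign to 0.61 in the upper part, so it has no stable direction. The cause of these shifts was not tested.

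Tiles lost in DTP numbered 258, 208 and 217 in those 3 stricter sets, 285 with 5-kb tiles, 66 with 20-kb tiles, and 234 and 69 at thresholds of 25 and 75 points. Tiles lost in DTP + TSA against DTP numbered 27, 29 and 22 in the stricter sets, 26 when joined within 5 kb, 45 with 5-kb tiles, 0 with 20-kb tiles, and 49 and 2 at the other thresholds. The number of tiles changes with their size, so counts at different sizes are not directly comparable. For DTP against parental cells the genome share was computed as reported (36.0%) and with equal numbers by mean signal (57.1%). For DTP + TSA against DTP it was computed only as reported (7.62%), so the other counts have no background. Gaps numbered 160 in DTP + TSA and 171 in DTP with equal numbers by mean signal, 193 and 211 by summit value, and 180 and 173 in the upper part. Joined within 2 kb, there were 191 in DTP + TSA, 182 in DTP and 37 in parental cells, within 5 kb 116, 107 and 16, and of at least 2 kb 199, 192 and 39.

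The DTP minus parental difference at the edges less that in the interior was 5.15, 8.86 and 6.19 points in the stricter sets, 6.49 with an outer 250 kb, 5.83 with an outer 1 Mb and 9.83 from the outer ends of the first and last parental intervals, against 2.94 as reported. The same contrast for DTP + TSA minus DTP was -7.51 with equal numbers by mean signal and -4.88 in the upper part, against -2.63. Internal pieces held 31.2%, 37.1% and 35.7% of the lost length in the stricter sets, 79.4% and 87.8% when joined within 2 kb and 5 kb, and 47.3% with intervals of at least 2 kb. Lost length covered again in DTP + TSA was 12.6%, 15.6% and 17.0% in the stricter sets and 23.5% when joined within 2 kb. No paired analysis was possible because each state has 1 library. Depth limits every count of intervals and is unknown.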
